A study of Mus musculus with 38 samples.

Results

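The ephrins, Slits, netrins and repulsive guidance molecules (RGMs) were read together with the receptors and partners that bind them, as a set of 41 named genes that carry 61 of the 25697 probes on the array, among 16593 genes with a probe. The members were matched by gene name and not by measured values. The list itself was chosen with earlier results of these data known. They comprise 13 Eph receptors, 8 ephrins, 3 Slits, 3 Robo receptors, 4 netrins, 2 netrin-Gs, 5 netrin receptors counted with Draxin, and 3 genes of the RGM and neogenin branch. Rgmb, the gene that marks the list, has 3 probes. The study had already reported Rgmb as upregulated in the spiral ganglion at 24 h after kainate. Kainate counts that include Rgmb are therefore not independent of the choice of the list. A gene with several probes was read by the probe of highest mean signal, which applied to 12 members, and probes that disagreed are given.

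Cultured cochlear explants of early postnatal C57BL/6 mice were treated for 2 h with kainate, a glutamate receptor agonist used to lesion the afferent synapses, or left untreated as controls. The question was how gene expression changed during the loss and regrowth of the afferent fibers. At 5, 24 or 72 h each explant was cut into a spiral ganglion (SG) fraction and an organ of Corti (OC) fraction, and the RNA of each fraction went on a bead array. The 38 arrays, 19 of SG and 19 of OC, form 12 groups of 2 to 4. The SG groups held 4 kainate arrays and as many controls at the first time, 3 kainate and 2 controls at 24 h, and 3 of each at 72 h. The corresponding OC groups held 4 with kainate and 3 without, then 2 with and 4 without, and finally 3 of each. All groups share the strain, the removal of the otic capsule and spiral ligament, and the culture itself, and no uncultured cochlea is among them. Each fraction holds several cell types, so that fewer cells of a type and less RNA per cell cannot be told apart.

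Guidance molecules are secreted or membrane-bound cues that turn growing axons toward or away from a territory. Ephrins stay on the cell surface, where A-class ephrins are anchored by lipid and B-class ephrins cross the membrane, and they signal on contact through Eph receptor tyrosine kinases. Slits are secreted and signal through Robo receptors, mostly as repellents. Netrins attract through DCC and neogenin and repel through UNC5 receptors, whereas RGMs bind neogenin and also act as co-receptors for bone morphogenetic proteins (BMPs). In the developing cochlea, Eph and ephrin signaling is known to shape the fasciculation and targeting of spiral ganglion axons.

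Between 10043 and 12171 probes were above background on an array (median 11180), with a detection p under 0.01 taken as above background. The fractions matched their labels by markers of the cells they hold. At 5 h the mean log2 signal of 15 neuron markers lay between 9.65 and 9.96 on the SG control arrays and between 8.71 and 8.87 on the OC control arrays, whereas that of 12 hair cell markers lay between 8.56 and 8.82 in SG and between 10.08 and 10.22 in OC. At 72 h the neuron markers no longer told the fractions apart (8.49 to 8.64 on the SG and 8.55 to 8.58 on the OC control arrays), whereas the hair cell markers did (8.52 to 9.06 against 10.50 to 10.65), and the differences between SG and OC below are averaged over the 3 times. A pair of SG control arrays stood apart, and results that rest on them are given without them. Replicate 2 at 24 h had a hair cell marker mean of 9.34, against 8.76 on the only other control array of that group and 8.77 to 8.96 on the kainate arrays. Replicate 2 at 72 h had 9.06 for hair cell markers (others 8.52 and 8.76), 11.15 for supporting cell markers (others 10.67 and 10.70) and 9.54 for fibroblast markers (others 10.11 and 10.40). The colour bar labelled batch in the clustering plot of the study was read as the array batch. In SG at 24 h no batch holds both kainate and control arrays.

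Of the 41 genes, 16 were above background on all 38 arrays and 10 on none, and the remaining 15 on some. Over all genes on the array, 39% were above background on every array and 38.8% on none. Among the receptors, Epha7 had the highest mean of the Eph family (log2 12.03) and Epha10 the lowest (7.28, above background on no array). Robo1 (11.75) and Robo2 (7.73) bounded the Robos, and Unc5b (10.98) and Unc5d (7.29) bounded the netrin receptors. Signals of different probes are not on one scale, so these values say which members were measurable and not which was more abundant. 

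Among the ligands, the highest and lowest means were those of Efna5 (11.76) and Efna2 (7.23) for the ephrins, Slit2 (11.22) and Slit1 (7.88) for the Slits, Ntn5 (9.87) and Ntn1 (7.16) for the netrins, and Ntng1 (8.81) and Ntng2 (7.58) for the netrin-Gs. In the RGM branch Rgma had the highest mean (12.26) and Rgmb the lowest (7.49). No Rgmb probe rose above background on any of the 38 arrays, so the values given for this BMP co-receptor describe signals at background.

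**Figure D1:**
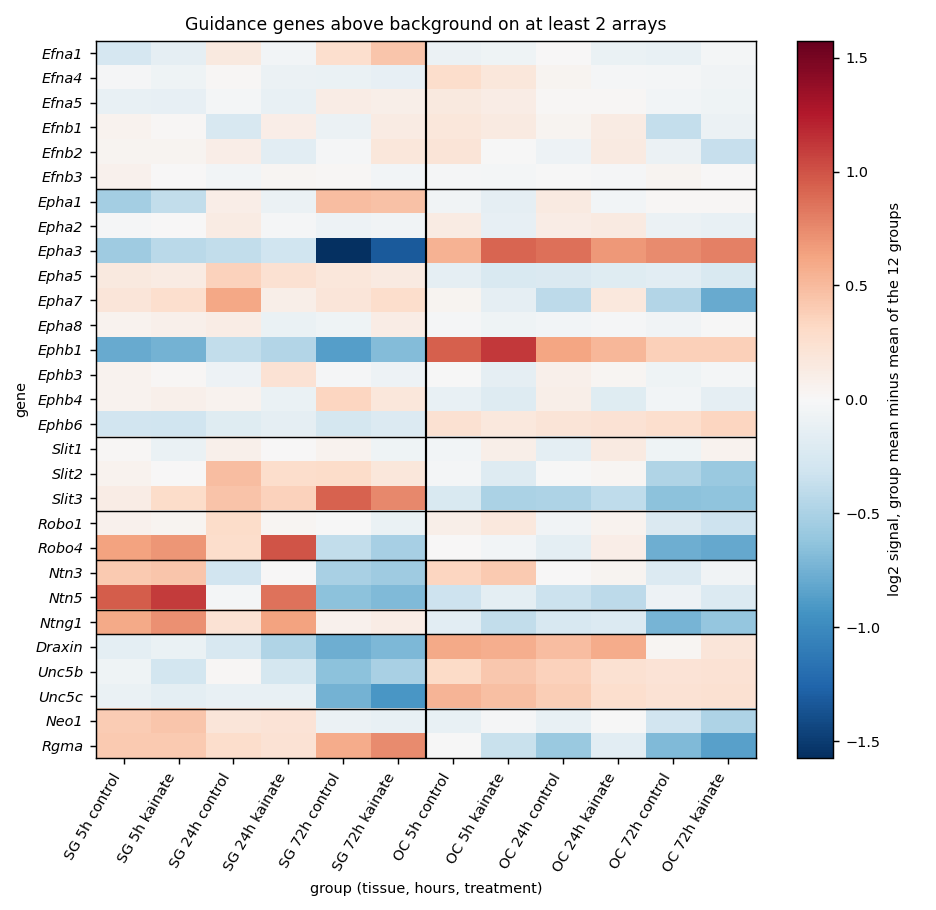
Mean normalized log2 signal of the 29 guidance genes above background on at least 2 arrays (rows, in families separated by lines) in the 12 groups (columns), each shown relative to the mean of the gene over the groups. Epha3, Ephb1 and Draxin are lower in the SG columns than in the OC columns, and Slit3, Rgma and Ntng1 are higher.

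The promoters of 4 genes are shown because these genes, all above background in SG, changed with time in culture differently in SG and OC control explants. The sequences are the 250 bases before a listed start of each gene, 5′ to 3′ on its own strand, from RefSeq (GRCm38.p6), and 36 of the 41 members matched a promoter entry. Capitals mark the GC box (GGGCGG), which was searched on both strands beside the TATA box (TATAAA) and the CCAAT box (CCAAT). Ntn5 lies on the plus strand at chr7:45683772-45684021, Epha1 on the minus strand at chr6:42373269-42373518, and Slit3 on the plus strand at chr11:35121206-35121455. Efna1 has 2 starts on the minus strand, with windows at chr3:89279646-89279895 and chr3:89280952-89281201. These are numbered by coordinate, so the first window lies inside the annotated gene, downstream of the second. The Epha1 window also reaches into its annotated gene.
Ntn5: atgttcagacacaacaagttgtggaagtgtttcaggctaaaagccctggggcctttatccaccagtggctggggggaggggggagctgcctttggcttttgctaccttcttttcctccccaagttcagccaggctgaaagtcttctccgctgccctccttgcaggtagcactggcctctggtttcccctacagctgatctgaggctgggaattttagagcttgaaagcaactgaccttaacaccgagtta
Epha1: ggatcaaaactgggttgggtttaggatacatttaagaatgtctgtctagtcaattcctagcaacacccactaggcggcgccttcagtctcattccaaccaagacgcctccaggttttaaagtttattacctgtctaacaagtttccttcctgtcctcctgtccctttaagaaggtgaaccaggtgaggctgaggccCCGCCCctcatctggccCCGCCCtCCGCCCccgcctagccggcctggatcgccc
Slit3: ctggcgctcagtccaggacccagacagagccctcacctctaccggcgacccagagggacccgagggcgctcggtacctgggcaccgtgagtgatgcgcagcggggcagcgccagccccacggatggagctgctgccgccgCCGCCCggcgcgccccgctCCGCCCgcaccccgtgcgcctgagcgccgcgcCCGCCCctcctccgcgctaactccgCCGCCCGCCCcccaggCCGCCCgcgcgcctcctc
Efna1, first start: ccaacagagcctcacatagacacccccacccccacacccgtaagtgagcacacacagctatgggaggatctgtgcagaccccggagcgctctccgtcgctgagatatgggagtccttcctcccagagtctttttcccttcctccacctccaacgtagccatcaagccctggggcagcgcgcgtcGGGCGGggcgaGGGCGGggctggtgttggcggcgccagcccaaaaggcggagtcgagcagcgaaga
Efna1, second start: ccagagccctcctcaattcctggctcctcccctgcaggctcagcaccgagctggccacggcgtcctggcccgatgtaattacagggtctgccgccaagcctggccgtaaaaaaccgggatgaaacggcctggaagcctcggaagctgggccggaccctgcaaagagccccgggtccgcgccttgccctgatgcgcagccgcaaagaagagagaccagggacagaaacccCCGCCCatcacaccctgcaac
The Ntn5 window held none of the 3 motifs and 2 CpG dinucleotides, at 52.8% GC. That of Epha1 held 3 GC boxes and 9 CpGs, that of Slit3 held 6 GC boxes, some of them overlapping, and 35 CpGs, and those of Efna1 held 2 and 1 GC boxes with 18 and 16 CpGs. Over 32851 promoters of the same length, 12.4% held a TATA box, 32.7% a GC box and 33.8% a CCAAT box, with a median of 6 CpGs. The matches describe these windows only.

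SG and OC control explants differed in 14 of the 41 genes (34.1%) at an adjusted p under 0.05, where 25.5% of all genes did, with 8 higher and 6 lower in SG. The median difference over the 41 genes was 0.01 on the log2 scale, against 0.00 over all genes. The ligands Slit3, Slit2 and Rgma, the receptors Epha5, Epha7, Neo1 and Robo4, and Ntng1 were higher in SG, and Epha3, Ephb1, Ephb6, Unc5b, Unc5c and Draxin were lower. Of the 8 ephrins 0 passed (limma), with a median of -0.02, and at an unadjusted p under 0.05 only Efna3 did (-0.18, adjusted p = 0.0866), with all its arrays below background. With the explant as a block in limma, Efna3 passed (-0.23, adjusted p = 0.00266). The values are SG minus OC differences averaged over 5, 24 and 72 h.

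Rgma, a lipid-anchored repellent that binds neogenin, had a lowest, median and highest log2 signal of 12.36, 12.59 and 12.99 on 9 SG control arrays and of 11.29, 11.77 and 12.55 on 10 OC control arrays. The groups overlapped at their edges, with 2 OC arrays at 5 h reaching into the SG range. Rgma was 1.80-fold higher in SG (log2 difference 0.84, SE 0.133, adjusted p = 7.64e-06). Its receptor neogenin, encoded by Neo1, was 1.28-fold higher in SG (0.35, adjusted p = 1.70e-03), with arrays from 11.49 to 12.36 in SG and from 11.23 to 11.92 in OC. Rgmb had a difference of 0.04 (adjusted p = 0.768), with all arrays below background.

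Slit3, a secreted Robo ligand, ran from 8.66 through 9.08 to 10.04 in SG and from 7.69 through 8.18 to 8.68 in OC. The highest OC array was just above the lowest SG array, and only 6 of the 10 OC arrays were above background against 9 of 9 in SG. It was 1.95-fold higher in SG (log2 difference 0.96, SE 0.128, adjusted p = 4.35e-07). Slit2, the other Slit well above background, was 1.37-fold higher in SG (0.45, adjusted p = 1.33e-03), with medians of 11.48 and 11.10. Robo4, a receptor known mainly from endothelium, was 1.40-fold higher (0.48, adjusted p = 0.0326). The call for Robo4 was lost in 8 of 19 fits that left out 1 array, its second probe gave 0.09, and 9 endothelial markers had a median difference of 0.09 with 1 higher and 1 lower in SG.

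The largest differences in the other direction were those of Epha3 and Ephb1, receptors of A-class and B-class ephrins. Epha3 ran from 7.94 through 9.07 to 9.96 in SG and from 9.64 through 10.83 to 11.19 in OC. It was 2.96-fold lower in SG (log2 difference -1.56, SE 0.218, adjusted p = 9.62e-07), and its other 2 probes gave smaller differences of -0.39 and -0.50 that also passed. For Ephb1 the SG arrays ran from 8.47 through 9.21 to 9.85 and the OC arrays from 10.20 through 10.52 to 10.97. These ranges did not overlap, and Ephb1 was 2.52-fold lower in SG (log2 difference -1.33, SE 0.117, adjusted p = 1.04e-10).

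Other Eph receptors differed the opposite way. Epha7, a receptor of A-class ephrins, ran from 11.96 through 12.37 to 12.76 in SG and from 11.27 through 11.78 to 12.19 in OC, and was 1.52-fold higher in SG (log2 difference 0.61, adjusted p = 1.26e-04), with 0.58 and 0.48 at its other probes. Epha5 was above background on 7 of 9 SG arrays and 0 of 10 OC arrays, and was at least 1.08-fold higher in SG (adjusted p = 1.41e-05). At Ephb6, a receptor without kinase activity, the difference was -0.49 (adjusted p = 4.71e-06), with 0 of 9 SG arrays and 5 of 10 OC arrays above background. The bound for Ephb6 did not exceed 1, so no fold is given.

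Of the 5 netrin receptors counted with Draxin, 3 were lower in SG and the other 2, Unc5a and Unc5d, did not pass. Unc5c, a repulsive netrin receptor, ran from 8.23 through 8.90 to 9.32 in SG and from 9.09 through 9.44 to 9.88 in OC, and was 1.62-fold lower (log2 difference -0.70, adjusted p = 3.10e-06). Unc5b, of the same family and also known from vessels, was 1.44-fold lower (-0.53, adjusted p = 8.38e-05), with medians of 10.85 and 11.30. Draxin, a secreted protein that binds netrin and DCC, ran from 7.61 through 8.21 to 8.68 in SG and from 8.39 through 9.02 to 9.23 in OC. It was 1.70-fold lower in SG (log2 difference -0.76, adjusted p = 2.63e-08), and its other 2 probes, above background on 0 and 3 of the 38 arrays, gave 0.03 and -0.02. Dcc, the attractive netrin receptor, was not analysed here.

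In contrast, netrin-G1, a lipid-anchored relative of the netrins encoded by Ntng1, was higher in SG. Its arrays ran from 8.84 through 9.10 to 9.65 in SG and from 7.97 through 8.49 to 8.71 in OC, without overlap. Ntng1 was 1.61-fold higher in SG (log2 difference 0.68, SE 0.074, adjusted p = 6.96e-09). A second probe above background on 21 arrays gave 0.29 (adjusted p = 0.0126), and the third, above background on none, gave -0.02.

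In kainate explants, which are other explants than the controls, 18 of the 41 genes (43.9%) differed between SG and OC, where 26.7% of all genes did, with 10 higher and 8 lower in SG and a median of 0.01 (all genes -0.01). The 14 genes that differed in control explants were all among them with the same sign. Epha3 (-1.48), Ephb1 (-1.30) and Draxin (-0.88) were again lowest relative to OC, and Slit3 (0.98), Rgma (0.91) and Ntng1 (0.90) highest. The other 4 were Ntn5 at 0.68 (adjusted p = 4.62e-04), Ephb4, a receptor of B-class ephrins, at 0.24 (adjusted p = 0.0193), Ntng2 at -0.28 and Ntn4 at -0.19, the last 2 at or near background. The difference of Ntn5 was 1.25 at 5 h, 1.27 at 24 h and, with the opposite sign, -0.48 at 72 h (adjusted p = 0.274). Whether these 4 differed more in kainate than in control explants was not tested.

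Within batches, whose SG and OC arrays are not all of the same time, the differences kept their sign in all 4 batches that hold SG and OC control arrays for 14 of 14 genes, and in all 5 such batches of kainate explants for 17 of 18. The exception was Slit2, at -0.03 in 1 batch and up to 0.70 in another. Ephb1 ranged from -1.89 to -1.07 over the control batches and Rgma from 0.31 to 1.19. Between arrays of the same batch and the same time, the sign was kept in all 4 such comparisons for 12 of the 14 genes in control explants and in all 7 for 13 of the 18 in kainate explants. The exceptions were Rgma (lowest -0.19) and Robo4 (lowest at 0) in control explants, and Robo4, Slit2, Ephb4, Ntng2 and Ntn5 in kainate explants, where Ntn5 ranged from -0.91 to 1.67. Marker genes moved with the fractions: of 12 hair cell markers 10 were lower and 0 higher in SG (median -1.70), of 10 supporting cell markers 8 were lower and 0 higher (median -0.75), and of 15 neuron markers 9 were higher and 2 lower (median 0.64). Of 12 fibroblast markers 6 were higher and 1 lower in SG (median 0.43), and of 10 Schwann cell and satellite glia markers 4 were higher and 1 lower. Their part in the differences of the guidance genes was not tested.

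**Figure D2:**
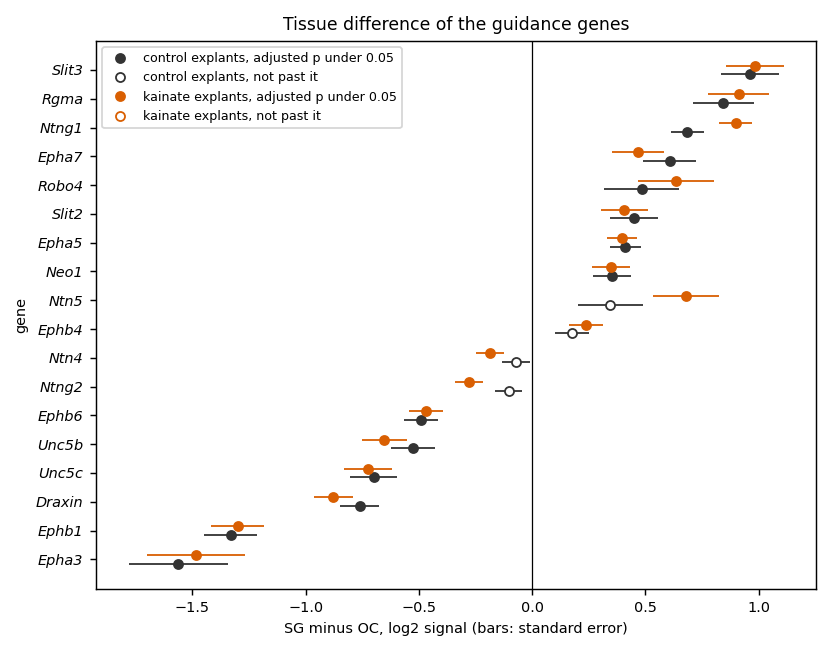
SG minus OC differences on the log2 scale, averaged over 5, 24 and 72 h, for the 18 guidance genes that passed in control or kainate explants. Points are model estimates in control (dark) and kainate (orange) explants, bars are their SE, and filled points passed an adjusted p under 0.05. The 14 genes that passed in control explants lie on the same side of 0 in kainate explants, from Epha3 (-1.56 in control) to Slit3 (0.96).

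Most changes with time in culture were in SG. From 5 to 72 h, 13 of the 41 genes (31.7%) changed in SG control explants, where 17.7% of all genes did, with 3 rising and 10 falling and a median of -0.04 (all genes 0.01). In SG kainate explants 9 (22.0%) changed, where 16.9% of all genes did, with 2 rising and 7 falling. Netrin-5, netrin-3 and Robo4 fell in both, and Epha1 and Efna1 rose in both. In OC control explants 2 genes (4.88%) changed, where 4.54% did, and in OC kainate explants 3 (7.32%), where 5.6% did.

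The largest fall was that of Ntn5, which encodes netrin-5, a netrin known in the mouse from the border between the spinal cord and its nerve roots. The 4 SG control arrays at 5 h read 11.08, 10.59, 10.86 and 10.59, and the 3 at 72 h read 8.67, 9.32 and 9.53. Every array at 5 h was above every array at 72 h, by a 3.04-fold difference of the means (log2 change -1.60, SE 0.234, adjusted p = 5.78e-06). In SG kainate explants Ntn5 went from 11.34, 10.90, 10.65 and 10.80 to 9.72, 8.82 and 8.83, a 3.48-fold fall (-1.80, adjusted p = 1.20e-06). In OC control explants it read 9.51, 9.14 and 9.82 at 5 h and 9.64, 9.78 and 9.79 at 72 h, with overlap. The change in SG differed from that in OC by -1.85 (adjusted p = 8.57e-04), and the SG minus OC difference of Ntn5 went from 1.29 at 5 h (adjusted p = 1.29e-04) through 0.31 at 24 h to -0.56 at 72 h.

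Ntn3, the other netrin above background on all arrays, read 10.06, 10.14, 9.80 and 10.30 at 5 h in SG control explants, against 9.13, 8.99 and 9.33 at 72 h. These groups were well apart, with a 1.90-fold fall (log2 change -0.92, SE 0.159, adjusted p = 6.34e-05), and the fall in kainate explants was 2.00-fold. Both netrins had fallen by 24 h in control explants, to 9.50 and 10.07 for Ntn5 (-0.99, adjusted p = 0.0424) and to 9.27 and 9.44 for Ntn3 (-0.72, adjusted p = 0.0251), and Epha1 had risen (0.64, adjusted p = 0.0165). Those 3 genes (7.32%) were the members that passed from 5 to 24 h, where 2.34% of all genes did. Without SG control replicate 2 at 24 h none of the 3 passed, with changes of -0.71 for Ntn5 (adjusted p = 0.599), -0.63 for Ntn3 (0.364) and 0.61 for Epha1 (0.232), and without replicate 4 at 5 h none passed either. The same arrays at 5 h enter both time comparisons. In OC Ntn3 did not pass from 5 to 72 h, but it was not unchanged there. Within batches, 1 array against 1, it fell by -0.41 and -0.63 in OC control and by -0.48 and -0.75 in OC kainate explants. Under the replicate block it passed in OC control (-0.66, adjusted p = 0.000662) and OC kainate explants (-0.51, adjusted p = 0.00293).

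Robo4 fell from 9.58, 9.24, 9.34 and 9.03 to 7.71, 8.40 and 8.72 in SG control explants (2.03-fold, log2 change -1.02, adjusted p = 7.32e-03), without overlap. In kainate explants it fell 2.32-fold, but 1 array at 72 h stayed at 9.20 while the others read 7.67 and 7.57. Its second probe, above background on 10 arrays, changed by 0.06 in control explants. Of 9 endothelial markers 3 fell and 0 rose, and their mean log2 signal went from 9.33 to 9.63 over the arrays at 5 h to 8.84 to 9.22 at 72 h. The part of endothelial markers in the fall of Robo4 was not tested.

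Of the 5 netrin receptors counted with Draxin, 3 fell in SG control explants, namely Unc5c, Unc5b and Draxin. Unc5c went from 8.89, 9.02, 8.96 and 8.96 to 8.44, 8.23 and 8.28 in SG control explants, a 1.56-fold fall (adjusted p = 6.86e-03), and 1.71-fold in kainate explants. Unc5b fell 1.49-fold (adjusted p = 0.0103), but with batch as a term it did not pass (-0.45, adjusted p = 0.0902). Neo1, the neogenin gene, fell 1.41-fold (adjusted p = 0.0103) in control explants, and also passed in kainate explants, as Unc5b did not. Draxin fell from 4 of 4 arrays above background to 0 of 3, at least 1.17-fold (adjusted p = 1.88e-03). Ntng1 went from 9.47, 9.29, 9.16 and 9.65 to 8.84, 8.84 and 8.90, a 1.45-fold fall (adjusted p = 1.58e-03).

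Epha3 changed by -1.02 (adjusted p = 0.0474) in SG control explants, from 8.76, 9.07, 9.55 and 9.96 to 7.94, 8.25 and 8.77, with overlap of the 2 groups at 8.76 and 8.77. Its other probes gave -0.12 and -0.17. In kainate explants it did not pass, except under the replicate block (-0.94, adjusted p = 0.0183). Rgmb had a change of -0.33 (adjusted p = 0.0303) with all arrays below background. With batch as a term neither passed, at -1.03 for Epha3 (adjusted p = 0.0509) and -0.33 for Rgmb (adjusted p = 0.0757).

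Rising with time in SG were the receptor Epha1, the ephrin Efna1 and Slit3. Epha1, a receptor of A-class ephrins found in epithelia, read 9.17, 9.13, 9.08 and 8.77 at 5 h in control explants. By 72 h its arrays read 10.21, 9.77 and 10.19, all above those at 5 h. It rose 2.03-fold (log2 change 1.02, SE 0.135, adjusted p = 1.16e-06), its 2 other probes above background on some arrays rose by 0.57 and 0.59, and in kainate explants the rise was 1.81-fold (adjusted p = 2.41e-05). The OC control arrays for Epha1 stayed between 9.43 and 9.89 at all times, and the difference between the changes in SG and OC was 0.95 (adjusted p = 2.96e-03).

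Efna1, an A-class ephrin first described in endothelium, read 10.84, 10.82, 10.96 and 10.77 at 5 h in SG control explants, against 11.43, 11.39 and 11.34 at 72 h. The groups were apart, with a 1.46-fold rise (adjusted p = 9.32e-04), and in kainate explants it rose 1.49-fold (adjusted p = 4.89e-04). The change in SG differed from that in OC by 0.57 (adjusted p = 0.0496), and this call for Efna1 was lost in 11 of 13 fits that left out 1 array.

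Slit3 read 8.74, 9.08, 8.73 and 8.66 at 5 h and 10.04, 9.54 and 9.27 at 72 h, a 1.76-fold rise (log2 change 0.81, SE 0.208, adjusted p = 5.41e-03), while in OC control explants it went from 8.56, 8.09 and 8.68 to 8.44, 7.97 and 7.69. The difference between these changes was 1.22 (adjusted p = 0.0144), and without SG control replicate 2 at 72 h it was 1.01 (adjusted p = 0.0762). Without OC control replicate 3 at 5 h or replicate 4 at 72 h it was 1.104 and 1.049, again not past the threshold, and the SG minus OC difference of Slit3 was 0.36 at 5 h, 0.94 at 24 h and 1.58 at 72 h. In kainate explants Slit3 changed by 0.47 in SG (adjusted p = 0.143), and by 0.61 under the replicate block, where it passed (adjusted p = 0.00951).

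Changes with time that differed between SG and OC control explants passed for 5 of the 41 genes (12.2%), where 5.01% of all genes did. They were Ntn5, Epha1, Slit3, Efna1 and, at background, Rgmb (-0.57, adjusted p = 0.0274, and -0.51 with adjusted p = 0.0698 under the replicate block). Epha3 (-1.22, adjusted p = 0.235) and Rgma (0.87, adjusted p = 0.134) did not pass. At its probe of highest mean Epha7 had a difference of 0.51 (adjusted p = 0.416), whereas its probe above background on 36 arrays passed with 0.95 (adjusted p = 4.98e-03).

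Leaving out SG control replicate 2 at 72 h took the count in SG control explants from 13 to 7, and Slit3, Robo4, Unc5b, Neo1, Epha3 and Rgmb were the calls lost. This is the array with the high hair cell and supporting cell markers and the low fibroblast markers, at 9.06, 11.15 and 9.54, and their part in the lost calls was not tested. Without it Robo4 changed by -0.74 (adjusted p = 0.108) and Slit3 by 0.60 (adjusted p = 0.0848). In the 1 batch that holds SG control arrays of 5 and of 72 h, 13 of 13 genes kept their sign, as did 9 of 9 in both such batches of kainate explants, each with 1 array against 1. Neuron markers fell over the same interval in SG control explants, 11 of 15 with 0 rising (median -1.21), and their mean log2 signal was 9.65 to 9.96 at 5 h and 8.49 to 8.64 at 72 h. Of 12 fibroblast markers 5 fell and 1 rose (median -0.52), and of 10 supporting cell markers 3 rose and 1 fell (median 0.21). Of 10 Schwann cell and satellite glia markers 3 fell, Egr2, Ngfr and Fabp7, and Mbp rose, with a mean log2 signal of 9.10 to 9.32 at 5 h and 8.65 to 8.95 at 72 h. Their part in the changes of the guidance genes was not tested.

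**Figure D3:**
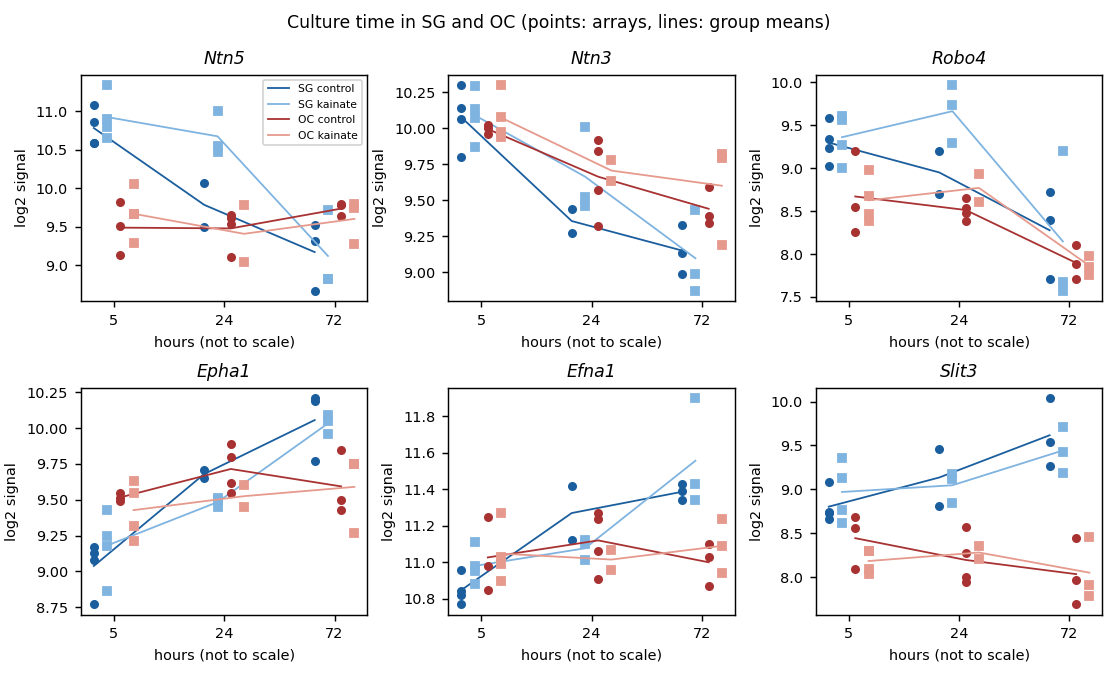
Normalized log2 signal of Ntn5, Ntn3, Robo4, Epha1, Efna1 and Slit3 on each array at 5, 24 and 72 h in SG and OC, for control and kainate explants, with points for arrays, lines through the group means and a time axis that is not to scale. Ntn5 falls in SG from 10.59 or more at 5 h to 9.53 or less at 72 h in control explants and stays between 9.11 and 9.82 in OC control explants, and Slit3 rises in SG.

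In OC few members changed with time. From 5 to 72 h Draxin fell 1.48-fold (adjusted p = 0.0275) and Ntng1 1.48-fold (adjusted p = 7.12e-03) in control explants, and Ephb1 fell 1.66-fold (adjusted p = 0.0185), Epha7 1.56-fold (adjusted p = 0.0399) and Neo1 1.38-fold (adjusted p = 0.0422) in kainate explants. Each call was lost under some alternative except that of Ntng1. Members with larger or like changes that did not pass included Robo4 (-0.78 in control, adjusted p = 0.154, and -0.77 in kainate explants, adjusted p = 0.113) and Rgma (-0.69 in control explants, adjusted p = 0.0992). With batch as a term 7 genes passed in place of 2 in control explants and 5 in place of 3 in kainate explants. Without replicate 4 at 72 h or replicate 1 at 5 h, 0 of the 3 passed in kainate explants.

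From 5 to 24 h 0 members passed in SG kainate explants (limma), where 0.645% of all genes did, 0 in OC control explants, where 0.0904% did, and 0 in OC kainate explants, where 0.0% did. At an unadjusted p under 0.05 these were 3, 4 and 2 members. The largest changes were those of Ntn3 (-0.43) and Robo4 (0.30) in SG kainate explants, of Rgma (-0.58) and Epha3 (0.32) in OC control explants, and of Ephb1 (-0.59) and Epha7 (0.31) in OC kainate explants.

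Few of these genes differed between kainate and control explants. At an unadjusted p under 0.005, the threshold used in the study, 2 of the 41 genes (4.88%) passed in SG at 24 h, Ntn5 and Rgmb, where 1.04% of all genes did. In SG 0 members passed at 5 h (all genes 0.404%) and 0 at 72 h (0.187%). The OC counts were 0 at each time, with 0.121% of all genes passing at 5 h, 0.247% at 24 h and 0.217% at 72 h. At an unadjusted p under 0.05 the numbers were 2 and 7 in SG at 5 and 24 h, 2 in OC at 24 h and 0 in the other 3. No member passed an adjusted p under 0.05 in any of the 6 comparisons (limma), where 7 of all probes did in SG at 24 h and 0 in the others. With the replicate number as a block in limma, Robo4 passed it in SG at 72 h (-0.94, adjusted p = 0.0106), where 2 pairs share a number. The median over the 41 genes in SG at 24 h was -0.07, against -0.01 over all genes.

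Ntn5 read 9.50 and 10.07 on the 2 SG control arrays at 24 h and 10.55, 11.00 and 10.47 on the 3 kainate arrays. The groups did not overlap, and Ntn5 was 1.85-fold higher after kainate (log2 difference 0.89, SE 0.280, limma unadjusted p 0.0034, adjusted p = 0.416). With 3 arrays against 2, an exact two-sided permutation test gave 0.2 for Ntn5, and with so few arrays such a test cannot fall under 0.05. In OC the 4 control arrays at 24 h read 9.11, 9.54, 9.61 and 9.66 and the 2 kainate arrays 9.04 and 9.78, so that the kainate arrays enclosed the controls. The difference between the kainate effects in SG and OC for Ntn5 was 0.96 (unadjusted p 0.0186), which did not pass 0.005. With the replicate number as a block this difference was 1.16 and passed, but in SG it rests on the 1 pair that shares a number. Without SG control replicate 2 the difference in SG was 0.60 (unadjusted p 0.0956), and without kainate replicate 3 it was 0.72 (unadjusted p 0.0236). With batch as a term over all arrays it was 0.85 (unadjusted p 0.0141).

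From 5 to 24 h Ntn5 changed by -0.25 in kainate explants (adjusted p = 0.847) and by -0.99 in control explants. The same SG control arrays at 24 h enter the kainate comparison and the time comparison. The difference between the kainate effects in SG at 24 and 5 h was 0.74 for Ntn5 (unadjusted p 0.0438), which did not pass 0.005. At 72 h the kainate and control arrays overlapped.

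Rgmb had a difference of 0.38 (SE 0.127, unadjusted p 0.00492, adjusted p = 0.452) in SG at 24 h at its probe of highest mean. The control arrays read 7.37 and 7.27 and the kainate arrays 7.82, 7.77 and 7.54, without overlap, but all 5 were below background, so no fold is given. Its other 2 probes gave -0.03 and -0.02 in the same comparison. The call for Rgmb was lost in 4 of the 5 fits that left out 1 of these arrays and with batch as a term (0.33, unadjusted p 0.0413), and the exact two-sided permutation test gave 0.2. In SG at 5 h the same probe gave -0.20 (unadjusted p 0.0462), and the difference between the kainate effects at 24 and 5 h was 0.59 (unadjusted p 0.00091, adjusted p = 0.316), with 0.01 and -0.03 at the other probes. That was the 1 member (2.44%) that passed, where 0.916% of all genes did.

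Several members did not pass in SG at 24 h although their arrays lay apart. Epha7 read 12.76 and 12.56 on the control arrays and 12.18, 12.28 and 11.97 on the kainate arrays (-0.52, unadjusted p 0.0279), and Epha4, a receptor of both ephrin classes, had a difference of -0.29 (unadjusted p 0.0191) with most arrays below background. Unc5b stood at -0.30. Among the members with positive differences, Robo4 read 8.70 and 9.20 in control and 9.29, 9.73 and 9.97 in kainate explants (0.71, unadjusted p 0.0362, second probe -0.39). Ntng1 read 8.95 and 9.10 in control and 9.28, 9.29 and 9.73 in kainate explants (0.41, unadjusted p 0.00718). None of these overlapped between groups, as was the case for 13 of the 41 members (31.7%) in this comparison of 3 arrays with 2, where 22.8% of all genes did not overlap, and 2 members and 1.04% of all genes passed.

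Markers of other cells differed over the same 5 arrays. The mean log2 signal of 11 macrophage and leukocyte markers was 7.96 and 8.70 on the control arrays and 8.63 to 9.70 on the kainate arrays, that of 9 endothelial markers 9.22 and 9.60 against 9.63 to 9.85, and that of 12 fibroblast markers 10.15 and 10.34 against 10.42 to 10.87. Neuron markers stood at 8.77 and 8.84 against 8.82 to 9.14, and 10 Schwann cell and satellite glia markers at 8.91 and 9.07 against 9.22 to 9.25. Of these lists, 1 macrophage, 0 endothelial, 1 fibroblast, 1 neuron and 0 glial markers passed. Their part in the differences of Ntn5, Robo4 and Ntng1 was not tested.

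In OC at 24 h Epha7 had the largest positive difference (0.58, unadjusted p 0.0105), with 11.55, 11.89, 11.85 and 11.27 on the control arrays and 12.20 and 12.24 on the kainate arrays. The kainate arrays were above all controls. The difference between the kainate effects in SG and OC was -1.10 for Epha7 (SE 0.310, unadjusted p 0.00125, adjusted p = 0.999). Both other Epha7 probes, above background on 38 and 36 arrays, gave 0.01 (unadjusted p 0.970) and 0.11 (unadjusted p 0.635), so the difference was seen at 1 of 3 probes. Without SG control replicate 2 it was -0.997 (unadjusted p 0.00927), and without OC kainate replicate 4 it was -1.08 (unadjusted p 0.00556). For Rgmb, at background, the difference was 0.58 (unadjusted p 0.00224), with -0.06 and -0.20 at its other probes. With the replicate number as a block neither passed, at -0.94 for Epha7 (unadjusted p 0.0219) and 0.68 for Rgmb (unadjusted p 0.0188). In SG at 24 h only 1 kainate and control pair shares a number, so the blocked effect in SG rests on that pair. The deviations of its 2 arrays from their group means did not correlate (r = -0.00805).

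Epha7 and Rgmb were the 2 members (4.88%) whose kainate effect differed between SG and OC at 24 h, where 0.344% of all genes did. At 5 h 0 members passed (all genes 0.187%) and at 72 h 0 (0.145%) by limma, with 2 and 1 at an unadjusted p under 0.05. The largest values at 5 h were those of Rgmb (-0.41) and Slit3 (0.43), and at 72 h those of Efna2 (-0.25) and Efnb2 (0.46).

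**Figure D4:**
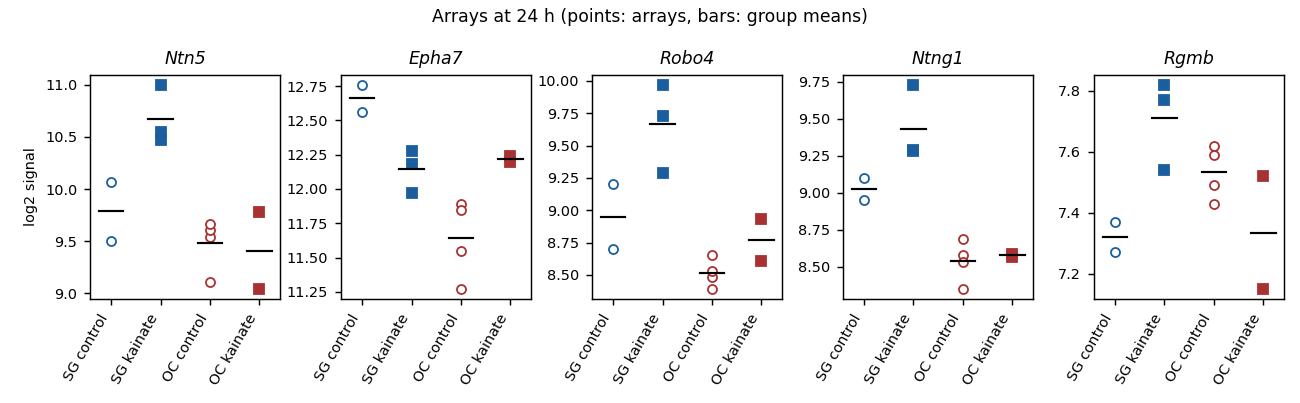
Normalized log2 signal of Ntn5, Epha7, Robo4, Ntng1 and Rgmb on each array at 24 h, for control and kainate explants of SG and OC, with points for arrays and bars for group means. In SG the 3 kainate arrays of Ntn5, at 10.47 to 11.00, lie above the 2 control arrays at 9.50 and 10.07, and Epha7 lies lower after kainate in SG and higher in OC.

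In the other kainate comparisons, where 0 members passed, the differences ranged over the 41 genes from -0.22 to 0.23 in SG at 5 h, bounded by Unc5b and Epha6, and from -0.18 to 0.25 in SG at 72 h, bounded by Unc5c and Epha3. In OC they ranged from -0.35 to 0.37 at 5 h, from Rgma to Epha3, from -0.28 to 0.58 at 24 h, from Ephb4 to Epha7, and from -0.34 to 0.28 at 72 h, from Epha7 to Efnb1, which encodes a B-class ephrin. In SG at 24 h the range was widest, from -0.52 at Epha7 to 0.89 at Ntn5. Within the 2 batches that hold both kinds of SG array at 72 h, with 1 array against 1 in each, Robo4 stood at -1.15 and -0.73 (-0.13 over all arrays), Ntn5 at -0.69 and -0.51 (-0.05) and Ephb1 at 0.37 and 0.63 (0.18). These 3 genes were chosen after their values were seen.

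Partners and effectors of the 4 systems were read from fixed lists with 13, 9, 13 and 13 measured genes. In SG at 24 h after kainate 0 of them passed in each list, where 1.04% of all genes did. The medians were -0.10 for Eph signaling, -0.00 for Slits and Robos, -0.02 for netrins and -0.25 for RGM and BMP signaling. In OC at 24 h, where 0.247% of all genes passed, 1 gene did, Lrrc4c (0.34), which encodes the ligand that binds netrin-G1 across synapses.

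Between the SG and OC control explants, where 25.5% of all genes differed, 3 of 13 Eph partners were higher in SG and 2 lower. Among them were Tiam1 (0.56), a Rac exchange factor, and Sipa1l1 (-0.60). Of the Slit and Robo partners Sdc3 (0.53), a heparan sulfate carrier, was higher and Evl (-1.02), an actin regulator of the Ena family, was lower. Among 13 netrin partners 4 were higher and 1 lower, including Flrt1 (0.57) and Flrt3 (0.55), which bind UNC5 receptors, and Pitpna (-0.54). In the RGM and BMP list Acvr1 (0.80), a type I BMP receptor, was higher, and Bmp4 (-1.68), Smad6 (-0.82) and Id1 (-0.54), a BMP ligand and a pair of genes induced by BMP signaling, were lower.

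From 5 to 72 h in SG control explants, where 17.7% of all genes changed, 1 of 13 Eph partners fell, Nck1 (-0.51). Of 9 Slit and Robo partners 1 fell, Arhgap39 (-0.34). Of the netrin partners Flrt2 (-0.75) and Flrt3 (-0.68) fell and Flrt1 (0.46) rose. In the RGM and BMP list Bmp6 (0.93) and Bmpr1b (0.55) rose and Bmpr2 (-0.34) fell.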

How the data were processed

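Total RNA of the SG and OC fractions of cochlear explants was measured on 38 bead arrays. Per the study's methods kainate explants came from different animals, control explants were other explants, and each gave both fractions. Whether kainate and control explants shared animals is not stated. Arrays were kept where the RNA passed quality control. The raw signal intensity that the authors deposited is linear, with array medians from 191.1 to 283.7. A normalized table of log2 values was deposited as well, and taking log2 of the raw signals and quantile normalizing them gave the same values to within 4.99e-09. Quantile normalization forces one distribution on all arrays, so that only changes relative to the other probes are seen. The deposited detection p-value was used to call a probe above background on an array (under 0.01). The submitters' processing notes name limma without a version.

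A mean for each of the 12 groups was fitted to all 38 arrays with limma 3.58.1 in R 4.3.3 (26 residual and 5.36 prior degrees of freedom), and the script was tested on simulated data. P-values were adjusted over all 25697 probes (Benjamini-Hochberg). Kainate effects and their differences were read at an unadjusted p under 0.005, as in the study, and tissue and time contrasts at an adjusted p under 0.05. Of the probes, 23978 carry 1 gene symbol and 1719 none. All 41 members were found in RefSeq, with 0 changed symbols. Where 1 group of a comparison was below background on every array, a fold is a lower bound against the lowest signal among probes above background.

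Genes were named if they passed a comparison, had the 3 largest differences in either direction, or had the highest or lowest mean of their family, and Rgmb was always named. Members, marker lists and partner lists were chosen with earlier results of these data known. Same-numbered SG and OC arrays of a time and treatment were taken to come from the same explant, which the labels do not state. Their deviations from the group means correlated in 16 of 16 pairs (r from 0.165 to 0.575). Same-numbered kainate and control arrays correlated above 0.1 in every pair at 5 h alone (4 of 4 in SG, 3 of 3 in OC). At 72 h 1 of 2 pairs in SG and 2 of 3 in OC did. Of 44 pairs of replicates 0 were identical. Alternatives were background correction with neqc (offset 16), other probes, batch, arrays of the same tissue, a replicate block, the deposited series values and leaving out each array. The number of arrays limits the precision.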

Additional observations from a re-analysis of the deposited data

Results flagged for a closer look

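In 6 of the 116 groups of 4 arrays over 29 genes, 1 array lay far from the others, where chance gives about 1 in 20. Epha2 was at 8.08 in OC control replicate 2 at 24 h, with the others at 7.72 to 7.77. In SG control explants at 5 h, Ephb4 was at 9.05 in replicate 1, with the others at 8.52 to 8.56, and Unc5b at 11.08 in replicate 3, with the others at 10.84 to 10.87. In kainate explants at 5 h, replicate 3 was low for Ephb6 in OC (7.80, others 8.08 to 8.11), for Unc5c in OC (9.29, others 9.58 to 9.64) and for Efna5 in SG (11.46, others 11.67 to 11.69).

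Effects differed between groups by a test of the difference itself (limma) in 8 cases. Changes from 5 to 72 h differed between SG and OC control explants for Ntn5 (-1.85), Slit3 (1.22), Epha1 (0.95), Efna1 (0.57) and Rgmb (-0.57). The kainate effect at 24 h differed between SG and OC for Epha7 (-1.10) and Rgmb (0.58), and that in SG differed between 24 and 5 h for Rgmb (0.59), each at an unadjusted p under 0.005. The cases of Rgmb rest on signals below background on all arrays, at 1 of 3 probes.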

How the results depend on the processing

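Of 72 calls of single members, 48 stood under every alternative that tested them, 24 were lost under at least 1 and 0 reversed. Some alternatives did not test every call. Arrays of the same tissue alone kept 28 and lost 5, and the filter on probes above background kept 65 and lost 0. The deposited series values were identical to the normalized values, and counting any probe keeps each call of the probe of highest mean. Neither of these alternatives could lose a call, so probes that disagreed are not counted in the 24. With neqc background correction the members changed by kainate were 1 in SG and 1 in OC at 24 h, against 2 and 0, and those changed from 5 to 72 h in OC were 1 in control and 0 in kainate explants, against 2 and 3. The filter on probes above background on at least 2 arrays leaves out the called members Rgmb, Ntng2 and Ntn4. With it the counts were 1 for kainate in SG at 24 h, 1 for the kainate effect that differed between tissues at 24 h (against 2) and 0 for the effect in SG that differed between 24 and 5 h (against 1). The calls of Ntng2 and Ntn4 between SG and OC in kainate explants were not tested under it. With batch as a term, 1 member changed by kainate in SG and 1 in OC at 24 h, 7 and 5 changed from 5 to 72 h in OC control and kainate explants, and the kainate effect differed between tissues for 1 member at 24 h and for 1 at 72 h (against 0). With arrays of the same tissue alone, 1 changed by kainate in SG at 24 h. Under the replicate block 3 members changed by kainate in SG at 72 h (against 0), 1 from 5 to 24 h in SG kainate explants (against 0), 5 from 5 to 72 h in OC control explants, and 1 differed between tissues in its kainate effect at 72 h. The 3 at 72 h were Robo4 (-0.94, adjusted p = 0.0106), Ntn5 (-0.60) and Ephb1 (0.50). Same-numbered kainate and control arrays correlated above 0.1 in every pair at 5 h, where the block changed no count. At 72 h they did so in 1 of 2 pairs in SG and 2 of 3 in OC. The block on the explant lost no call of the SG minus OC differences averaged over time. In control explants it added Efna3 (-0.23, adjusted p = 0.00266) and Ntn3 (-0.21, adjusted p = 0.0194). The kainate contrasts were blocked by tissue, time and replicate number, which pairs kainate with control arrays. Under that block the differences between tissues in the kainate effect at 24 h were lost for Epha7 and Rgmb. They stood at -0.94 for Epha7 (unadjusted p 0.0219) and 0.68 for Rgmb (unadjusted p 0.0188). Ntn5 (1.16) and Ephb3 (0.67), the latter above background on 3 arrays, passed in their place. For kainate in SG at 24 h Rgmb (0.49) was lost, Ephb3 (0.55) was added and Ntn5 (0.93) stayed. Only 1 pair shares a number in SG at 24 h, so these effects rest on it there. The time contrasts were blocked by replicate number within each tissue. There the difference between SG and OC in the change of Rgmb was lost (-0.51, adjusted p = 0.0698). Its change in SG control explants passed (-0.32, adjusted p = 0.0425). From 5 to 72 h Draxin in OC control explants (-0.52) and Neo1 in OC kainate explants (-0.41) were lost. Slit3 and Epha3 were added in SG kainate explants, and Ntn3 and Slit2 in OC kainate explants. From 5 to 24 h Slit2 was added in SG control explants (0.47). With any probe counted, 1 member changed from 5 to 24 h in SG kainate explants and 1 differed in its kainate effect at 72 h. The cause of these moves was not tested, apart from the probes left out. Leaving out each array gave 1 to 3 members changed by kainate in SG at 24 h, 0 to 1 in OC at 24 h and 0 in the other 4. Between SG and OC it gave 13 to 15 in control and 16 to 19 in kainate explants. With time it gave 0 to 2 and 7 to 14 in SG control explants at 24 and 72 h, 0 and 9 in SG kainate explants, 0 and 1 to 2 in OC control explants, and 0 and 0 to 4 in OC kainate explants. For differences between effects it gave 0 to 1 at 5 h, 1 to 2 at 24 h, 0 at 72 h, 0 to 2 in SG between 24 and 5 h, and 2 to 5 for the changes with time. Where a group kept 1 array, it was assumed to vary like the others. Groups of 2 arrays in SG control and OC kainate explants at 24 h, and signals near background for 10 members, limit what could be seen.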
